A study of Arabidopsis thaliana with 30 samples.

Results

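Seedlings of the Arabidopsis thaliana mutant ein2-5 that had stood under liquid MS medium for 24 h were compared with ein2-5 seedlings that had stood under it for 3 h, across all genes. The libraries were chosen by genotype, treatment and time as the labels give them, 3 for each time, which makes 6 of the 30 libraries of the series. The series covers ein2-5 and wild type (Col0) seedlings in MS with or without AA at 20 µM for 3 h or 24 h, and untreated seedlings, in 10 groups of 3 libraries of whole-seedling RNA. Its title names ethylene signalling and tolerance of mitochondrial stress. The MS libraries were its mock controls, and set against each other they show what changed with time under medium alone. The 24 h and the 3 h seedlings both carried the ein2-5 allele, were 12 days old, had grown on MS agar with 1.5% sucrose at 22 °C under 14 h light and 10 h dark, and received no AA. Wild type seedlings under MS for 24 h and 3 h, with the same growth, served to test whether a change differed between genotypes. Untreated ein2-5 seedlings gave the level without covering. The labels do not give the hour of day of covering or of harvest, so the time spent in medium and the hour of day cannot be told apart. Nor can covering and hour of day be told apart where MS is set against untreated seedlings. The labels give the time in a field named batch, and nothing in them tells if replicates came from separate cultures, so the p-values speak only for the spread among these libraries, which may be technical.

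EIN2 is a membrane protein that passes the ethylene signal on to the nucleus, and ein2-5 plants respond to ethylene hardly at all. Covering a seedling with liquid slows the exchange of gases, so that ethylene collects in the tissue and oxygen and carbon dioxide move in and out less freely. Leaf transcripts also follow the circadian clock, in which morning factors and evening genes repress each other, and they follow the store of sugar and starch that is filled in the light and emptied in the dark.

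EIN2 (AT5G03280, chr5:787428-793404, plus strand in the RefSeq annotation of TAIR10.1) checks the labels. It stood at 46.5, 46.6 and 41.1 CPM, the count of a gene scaled to the size of its library, in the ein2-5 libraries at 24 h and at 45.9, 48.7 and 42.6 CPM in those at 3 h, against 116, 119 and 119 CPM in wild type at 24 h and 104, 120.0 and 116 CPM in wild type at 3 h. All 6 ein2-5 libraries were below all 6 wild type libraries, and within ein2-5 the 2 times overlapped (log2 fold change -0.03 ± 0.09, adjusted p = 0.863). Here and below a log2 fold change is 24 h minus 3 h, with its standard error, and adjusted p-values are from the quasi-likelihood test of edgeR with Benjamini-Hochberg adjustment over all 21256 genes tested. The ein2-5 libraries held 24358346, 27420395 and 23901371 counts at 24 h and 24264330, 25878722 and 22997823 counts at 3 h. A single library stood apart: the standard deviation of its log2 ratio to the others of its group was 0.532 and 0.527 for MS 3 h replicate 3, against 0.398 between replicates 1 and 2, and between 0.367 and 0.477 for every other pair of replicates in the series. Where a count of list members at 24 h against 3 h moved by over 1.5 times without this library, or the call of a named gene was lost, the value without it is given as well. Because whole seedlings were used, fewer cells of a type and less RNA per cell cannot be told apart in any result below. Read pairs were counted without regard to strand and were split among the places they matched, so values of genes that overlap a neighbour, or that share sequence with a close copy, are uncertain, and such genes are named beside their results.

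At 24 h 4361 of 21256 genes differed from 3 h at an adjusted p under 0.05, which is 20.5% of the genes tested. Of these, 2138 (10.1%) rose and 2223 (10.5%) fell, and the median log2 fold change of all genes was -0.03. A change of at least 2-fold was found for 354 genes that rose and 357 that fell (1.67% and 1.68%). The count was 2177 when only the 6 libraries compared entered the fit, which changes the estimate of the spread, the gene filter and the scaling together. Without MS 3 h replicate 3 it was 3839 of 21407 genes (17.9%), of which 2009 rose and 1830 fell. Of the 4361 genes, 3252 passed again without that library, while 451 that rose and 658 that fell did not. In all 6 fits that left out 1 ein2-5 library, 2514 of these genes passed, 1340 of the 2138 that rose and 1174 of the 2223 that fell. These counts stand beside the like counts of each list below. The libraries of the 2 times did not overlap in 29.1% of all genes tested. Set against untreated ein2-5 seedlings, 6733 genes (31.7%) differed in MS at 3 h and 3191 (15.0%) in MS at 24 h, and the 2 comparisons share the untreated libraries. The plot of gene lists shows which groups of genes took part.

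**Figure D1:**
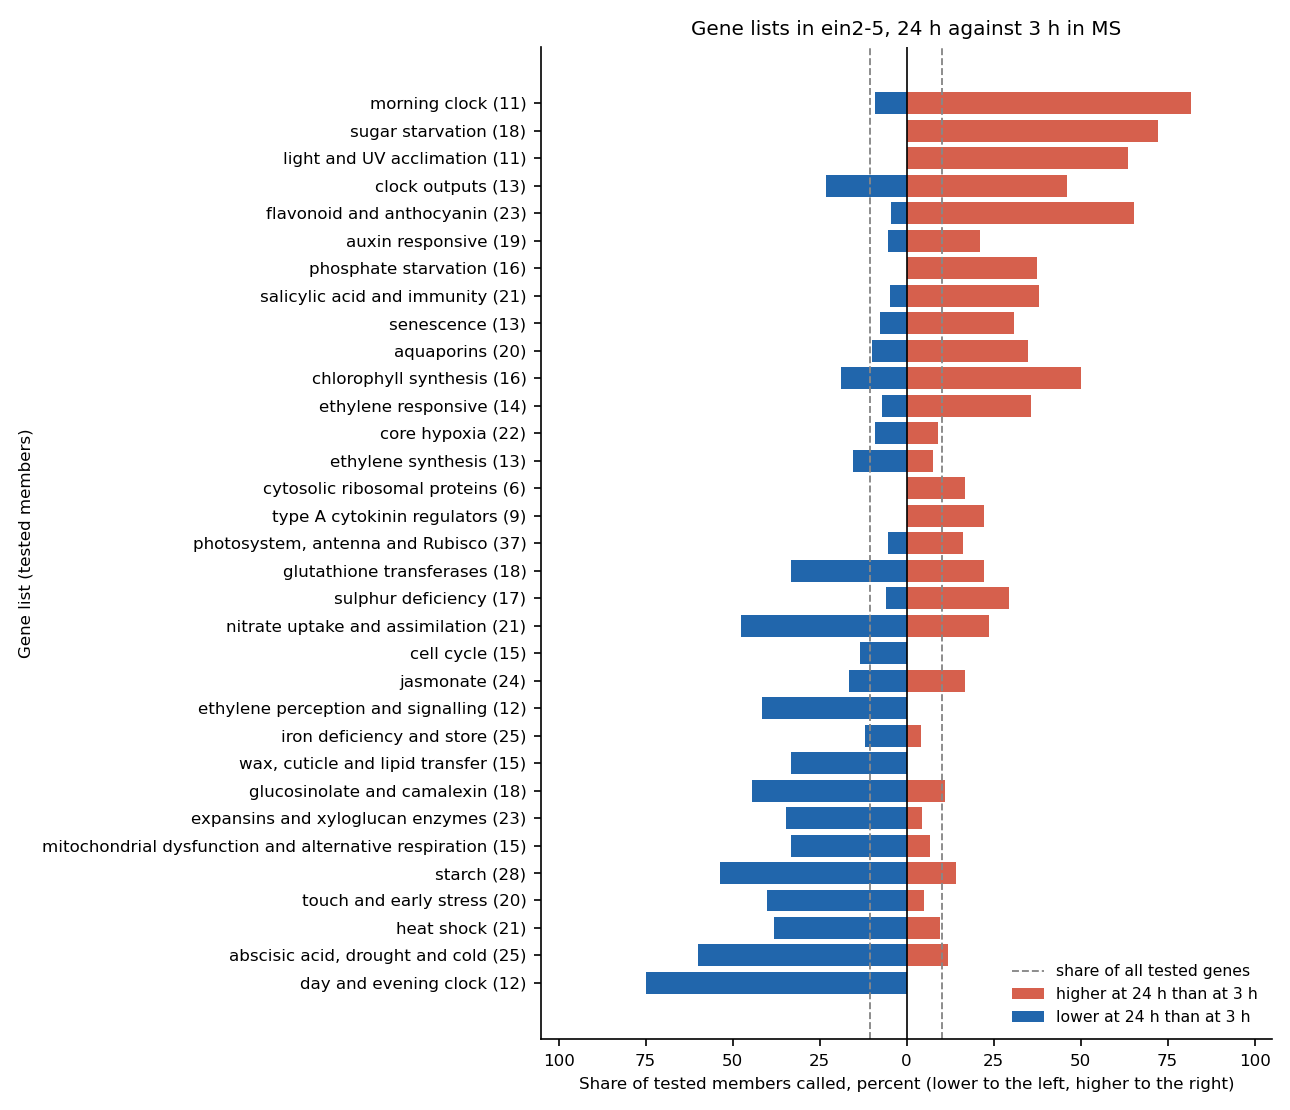
Share of the tested members of each of 33 gene lists that passed the test in ein2-5 at 24 h against 3 h (adjusted p under 0.05), with lower members to the left and higher members to the right of 0, ordered by the median log2 fold change; dashed lines mark the shares of all genes tested, 10.5% lower and 10.1% higher. The morning clock list has the largest share of higher members and the day and evening clock list the largest share of lower ones.

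The day and evening clock, ethylene signalling, wax and cell cycle lists had 0 members that rose. The sugar starvation, light and UV, type A regulator, phosphate and ribosomal protein lists had 0 that fell. Among all genes 10.1% rose and 10.5% fell, and at such shares a short list would hold few. These shares stand beside the counts of every list below, and 9.38% and 8.55% beside those without MS 3 h replicate 3. At an unadjusted p under 0.05 from edgeR the counts of 0 were again 0, apart from 1 higher cell cycle and 1 lower ribosomal protein member. DESeq2 called 0 in each. Of all 21256 genes 3147 rose and 3480 fell at that unadjusted p, and DESeq2 called 2414 higher and 2167 lower.

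The clearest pattern was in the circadian clock: 9 of 11 morning members rose and 1 fell, and 9 of 12 day and evening members fell and 0 rose, where 10.1% and 10.5% of all genes did so. The median log2 fold change was 1.27 for the morning list and -0.90 for the day and evening list. Without MS 3 h replicate 3 the counts were 8 up and 1 down in the morning list and 10 down in the other, beside 9.38% up and 8.55% down of all genes. LHY (AT1G01060, chr1:33365-37871, minus strand), a MYB factor that represses evening genes, had 163, 145 and 123 CPM at 24 h, against 12.9, 15.8 and 19.2 CPM at 3 h. All libraries at 24 h were higher than all those at 3 h, and the log2 fold change was 3.17 ± 0.12 (adjusted p = 3.00e-17). CCA1 (AT2G46830, chr2:19245591-19248915, plus strand), its close relative, had 164, 159.6 and 147 CPM at 24 h and 47.9, 48.4 and 43.3 CPM at 3 h (log2 fold change 1.75 ± 0.08, adjusted p = 9.33e-16). The 2 sets of libraries were again far apart. RVE8, a related MYB factor that activates evening genes, had 60.5, 55.8 and 47.2 CPM at 24 h and 11.3, 14.7 and 13.0 CPM at 3 h, and RVE1, which links the clock to auxin, had 57.0, 50.5 and 44.7 CPM at 24 h and 10.55, 11.01 and 10.2 CPM at 3 h. Both rose (log2 fold change 2.07 ± 0.11 and 2.26 ± 0.11). The coactivators LNK2, LNK3 and LNK4, which work with RVE8, rose by 1.12 ± 0.07, 1.54 ± 0.08 and 1.27 ± 0.09 on the log2 scale, and LNK1 by 0.22 ± 0.08, a call that was lost when any of 5 of the 6 libraries was left out (adjusted p = 0.0461 with all). PRR9, a pseudo-response regulator that peaks after LHY, was the morning member that fell: it had 28.5, 20.4 and 22.2 CPM at 24 h and 36.9, 29.6 and 33.0 CPM at 3 h (log2 fold change -0.48 ± 0.11, adjusted p = 0.00160). RVE1 and the LNK genes overlap a neighbour, and PRR9 shares read pairs with another locus.

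Among day and evening genes PRR5 (AT5G24470, chr5:8356204-8358546, minus strand), a pseudo-response regulator that represses CCA1 and LHY, had 2.90, 1.73 and 1.98 CPM at 24 h, against 21.6, 24.8 and 27.8 CPM at 3 h. Every library at 24 h was lower than every library at 3 h (log2 fold change -3.49 ± 0.20, adjusted p = 3.49e-14). FKF1 (AT1G68050, chr1:25508639-25510907, plus strand), a blue light receptor that times flowering, had 0.322, 0.0377 and 0.215 CPM at 24 h and 4.93, 4.34 and 6.004 CPM at 3 h (log2 fold change -4.72 ± 0.52, adjusted p = 3.40e-08). All 3 libraries at 24 h were close to 0. GI, the partner of FKF1, had 39.9, 35.4 and 35.0 CPM at 24 h and 87.7, 92.8 and 109 CPM at 3 h, and ELF4, a member of the evening complex, had 1.97, 1.70 and 2.06 CPM at 24 h and 8.95, 7.24 and 6.62 CPM at 3 h. Neither gene had overlapping libraries (log2 fold change -1.39 ± 0.10 and -1.99 ± 0.22). The other members of the evening complex, LUX and ELF3, fell (log2 fold change -0.90 ± 0.11 and -0.89 ± 0.10), and TOC1, PRR7 and PRR3 had log2 fold changes of -0.62 ± 0.09, -0.83 ± 0.08 and -2.04 ± 0.32, all past the threshold. FKF1, LUX and ELF3 overlap a neighbour. Beside untreated seedlings, LHY differed by -5.08 at 3 h and by -1.90 at 24 h on the log2 scale, CCA1 by -2.80 and -1.05, and PRR5 by 4.39 and 0.91, so that the 24 h level stood nearer to the untreated one in each.

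**Figure D2:**
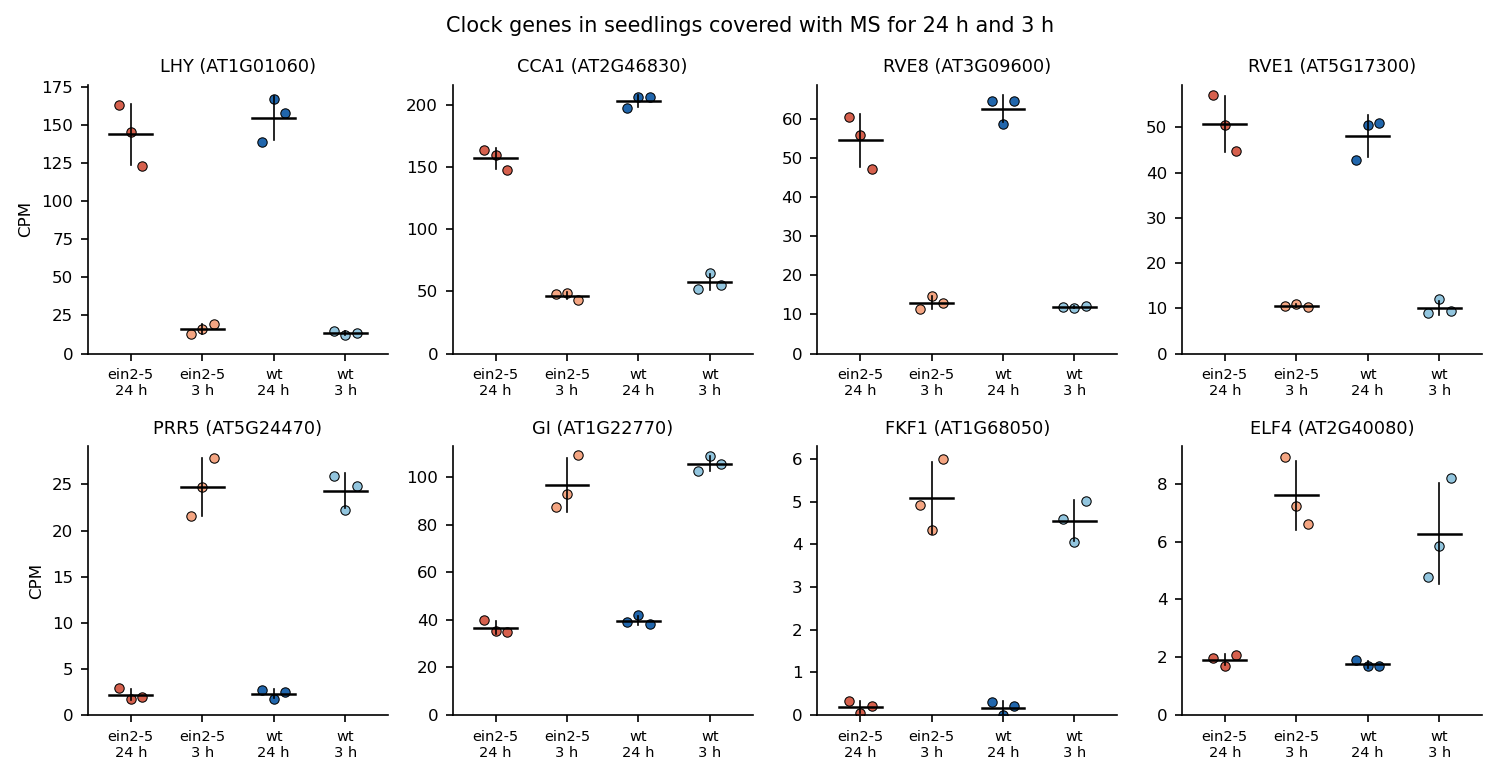
Expression (CPM, linear axis) of 8 clock genes in each library of ein2-5 at 24 h, ein2-5 at 3 h, wild type at 24 h and wild type at 3 h in MS; dots are libraries, the line is the mean and the bar 1 SD (n = 3). LHY, CCA1, RVE8 and RVE1 were higher at 24 h and PRR5, GI, FKF1 and ELF4 were lower at 24 h, in ein2-5 as in wild type.

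The clock has a known binding motif in promoters, the evening element, AAAATATCT, through which LHY, CCA1 and RVE8 act. It was searched on both strands in the 250 bases before each gene's start (RefSeq, TAIR10.1). It was present in 7.47% of the promoters of genes that fell (166 of 2223) and in 14.3% of those that fell at least 2-fold (51 of 357). Among promoters of genes that rose it was present in 1.03% (22 of 2128), and among all tested genes in 2.47% (521 of 21130). In the lists, 5 of 12 day and evening promoters, 4 of 13 promoters of clock outputs and 0 of 11 morning promoters held it. Of the other motifs searched on both strands, the CCA1 binding site AAAAATCT was in 6.02% of promoters of genes that rose, 8.55% of those that fell and 6.73% of all. The G-box CACGTG was in 9.49%, 7.42% and 7.2%, and the ABRE-like element ACGTGGC, read in abscisic acid responses, in 6.16%, 3.42% and 3.71%. Site II, TGGGCC, was in 12.8%, 11.9% and 15.8%, and the telo box, AAACCCTAA, in 1.27%, 1.84% and 2.01%. A match is a run of letters and does not show that a factor binds there. The stretches below hold the matches in 4 clock genes that passed the test, in capitals, and are shown because, of the motifs searched, this one had the share among lowered genes that stood furthest from its share among all genes; each is written 5′ to 3′ on the strand of its gene, where AGATATTTT is the motif read from the other strand.
PRR5, chr5:8358705-8358753, minus strand: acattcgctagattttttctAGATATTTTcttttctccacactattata
FKF1, chr1:25508433-25508481, plus strand: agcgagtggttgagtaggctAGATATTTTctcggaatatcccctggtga
COL2, chr3:489628-489676, minus strand: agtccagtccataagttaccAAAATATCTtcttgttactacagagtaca
GRP7, chr2:9266560-9266653, minus strand: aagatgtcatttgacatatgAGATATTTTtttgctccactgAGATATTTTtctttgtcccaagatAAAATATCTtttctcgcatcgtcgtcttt

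The match began 187 bases before the start in PRR5, 186 in FKF1 and 189 in COL2, and GRP7 held 3 matches between 76 and 31 bases before its start. Clock-controlled genes moved in both directions: 6 of 13 rose and 3 fell (median log2 fold change 0.60). GRP7, an RNA-binding protein with its own daily loop, had 112, 135 and 179 CPM at 24 h and 523, 507 and 372 CPM at 3 h (log2 fold change -1.72 ± 0.16, adjusted p = 2.03e-09). All 3 libraries at 24 h were below those at 3 h. COL2, a relative of the flowering regulator CONSTANS, held the same motif but rose: it had 74.3, 70.1 and 65.2 CPM at 24 h and 25.8, 20.4 and 22.6 CPM at 3 h (log2 fold change 1.61 ± 0.12). COL1 and CDF2, a repressor of CONSTANS, also rose (1.52 ± 0.09 and 1.75 ± 0.11). Of the catalases, CAT2 had 1781, 1803 and 1695 CPM at 24 h and 732, 742 and 697 CPM at 3 h and rose by 1.28 ± 0.08, whereas CAT3 had 885, 1063 and 1041 CPM at 24 h and 2192, 2135 and 1938 CPM at 3 h (log2 fold change -1.07 ± 0.12). CAT2, COL1 and COL2 overlap a neighbour.

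Starch genes fell more often than they rose: 15 of 28 fell and 4 rose (median log2 fold change -0.43), and 12 of the calls that fell held whichever single ein2-5 library was left out. Many of the lowered members act in the breakdown of the granule at night. GWD1, which phosphorylates starch so that it can be degraded, had 75.3, 78.3 and 69.6 CPM at 24 h, against 281, 262 and 262 CPM at 3 h (log2 fold change -1.85 ± 0.10, adjusted p = 1.09e-14). PHS2, the cytosolic glucan phosphorylase, had 37.6, 47.4 and 47.4 CPM at 24 h and 244, 233 and 224 CPM at 3 h (log2 fold change -2.41 ± 0.11, adjusted p = 9.33e-16). In both genes the 24 h libraries were several-fold below all 3 h libraries. The debranching enzyme ISA3, the phosphatase SEX4 and the glucanotransferases DPE1 and DPE2 had log2 fold changes of -1.98 ± 0.11, -1.57 ± 0.11, -1.47 ± 0.10 and -1.13 ± 0.09. The members that rose were the granule-bound starch synthase GBSS1 (1.29 ± 0.10) and the beta-amylase family members BAM1, BAM3 and BAM9. BAM9 had 139, 155 and 138 CPM at 24 h and 28.6, 29.9 and 24.5 CPM at 3 h (log2 fold change 2.38 ± 0.10, adjusted p = 6.71e-17). Each of its libraries at 24 h was above each at 3 h. PHS2, BAM3 and BAM9 overlap a neighbour. In MS at 3 h against untreated seedlings 20 of the 28 members were higher and 6 lower (17.3% and 14.4% of all genes), and in MS at 24 h 9 were higher and 4 lower (8.44% and 6.57%).

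Genes that mark sugar starvation rose: 13 of 18 passed in that direction and 0 fell, with a median log2 fold change of 0.74, and 12 of these calls held in every fit that left out 1 ein2-5 library. These genes are known to be low when sugar is plentiful and high in the dark. TPS11 (AT2G18700, chr2:8108898-8112010, plus strand), a class II trehalose phosphate synthase-like protein, had 133, 138 and 120.0 CPM at 24 h, against 29.8, 28.8 and 22.7 CPM at 3 h. The libraries of the 2 times were well separated (log2 fold change 2.26 ± 0.12, adjusted p = 2.15e-14). TPS8 and TPS9, of the same class, rose by 1.84 ± 0.12 and 1.46 ± 0.09, and TPS10 by 0.39 ± 0.09. DIN10 (AT5G20250, chr5:6833564-6836862, plus strand), a dark-induced member of the raffinose synthase family, had 455, 514 and 472 CPM at 24 h and 175, 189.6 and 184 CPM at 3 h (log2 fold change 1.39 ± 0.12, adjusted p = 2.83e-10). Its 24 h libraries were all above its 3 h libraries. DIN1 rose by 1.55 ± 0.23, the sugar-repressed factors BZIP1 and BZIP63 by 1.42 ± 0.14 and 0.94 ± 0.10, and the hexose transporter STP1 by 0.62 ± 0.10. ASN1, the dark-induced asparagine synthetase, had 93.3, 95.8 and 101 CPM at 24 h and 74.2, 73.2 and 54.2 CPM at 3 h (log2 fold change 0.52 ± 0.13, adjusted p = 0.00254). Against untreated seedlings 17 of the 18 members were lower in MS at 3 h and 0 higher (14.4% and 17.3% of all genes). In MS at 24 h 5 were lower and 1 higher (6.57% and 8.44%). TPS11 differed from untreated by -2.22 at 3 h and 0.04 at 24 h, and DIN10 by -1.83 and -0.43. DIN10, STP1 and ASN1 overlap a neighbour.

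In the nitrate list 10 of 21 members fell and 5 rose (median log2 fold change -0.12). Most of those that fell are known to take up nitrate, reduce it or supply its reduction. NRT2.1, a high-affinity nitrate transporter, had 3.06, 3.32 and 2.62 CPM at 24 h and 9.77, 7.12 and 10.4 CPM at 3 h (log2 fold change -1.60 ± 0.25). NIR1, nitrite reductase, had 369.8, 393 and 424 CPM at 24 h and 643, 564 and 622 CPM at 3 h (log2 fold change -0.62 ± 0.08, adjusted p = 1.88e-07). The 24 h libraries of both lay below all at 3 h, as did those of G6PD3, a plastid glucose-6-phosphate dehydrogenase (-0.98 ± 0.10), and UPM1, which makes siroheme for nitrite reductase (-0.75 ± 0.09). BT2 (AT3G48360, chr3:17907767-17910738, minus strand) is a BTB and TAZ domain protein whose transcript is known to be repressed by sugar. It was among the 10 largest rises of genes that reached 5 CPM, did not overlap between times and passed with and without MS 3 h replicate 3. BT2 had 176, 168 and 164 CPM at 24 h, against 25.1, 21.4 and 26.1 CPM at 3 h (log2 fold change 2.81 ± 0.16, adjusted p = 3.22e-14). BT1 behaved alike, with 179, 152 and 147 CPM at 24 h and 34.0, 35.9 and 37.6 CPM at 3 h (log2 fold change 2.15 ± 0.13). NIA2, the main nitrate reductase of leaves, rose by 0.27 ± 0.06, whereas NIA1 fell (log2 fold change -0.32 ± 0.08). G6PD3 and UPM1 overlap a neighbour.

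Flavonoid and light genes rose. In the flavonoid list 15 of 23 members rose and 1 fell (median log2 fold change 0.51), and in the light and UV list 7 of 11 rose and 0 fell (0.67). Without MS 3 h replicate 3, 12 flavonoid members rose and 0 fell. CHS, chalcone synthase, the entry enzyme of the pathway, had 502, 486 and 487 CPM at 24 h, against 223, 226 and 279 CPM at 3 h (log2 fold change 1.02 ± 0.08, adjusted p = 7.17e-11). F3H, the flavanone hydroxylase, had 82.9, 92.1 and 92.1 CPM at 24 h and 40.2, 48.7 and 41.8 CPM at 3 h (log2 fold change 1.03 ± 0.09, adjusted p = 6.95e-10). Neither gene had overlapping libraries. DFR and LDOX, the later enzymes toward anthocyanin, rose by 1.26 ± 0.14 and 1.18 ± 0.17, and C4H, of the general phenylpropanoid route, by 0.51 ± 0.07. MYB111, an activator of flavonol genes, was the member that fell (-1.14 ± 0.29, adjusted p = 0.00405), and this was lost without MS 3 h replicate 3 (adjusted p = 0.0723). ELIP2, an early light-induced protein of the thylakoid, had 22.9, 19.9 and 30.4 CPM at 24 h and 4.93, 4.34 and 6.95 CPM at 3 h (log2 fold change 2.17 ± 0.21, adjusted p = 3.05e-09). All libraries at 24 h were above all at 3 h. ELIP1, the photomorphogenesis factors HYH and HY5, and RUP2, which damps the UV-B receptor, rose by 1.53 ± 0.11, 1.29 ± 0.11, 0.83 ± 0.14 and 1.19 ± 0.13. Both lists had been lower than untreated in MS at 3 h (19 of 23 and 7 of 11 members), beside 14.4% of all genes. In MS at 24 h 14 and 5 members still were, beside 6.57% of all genes. CHS and F3H overlap a neighbour.

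In the photosystem, antenna and Rubisco list 6 of 37 members rose and 2 fell, beside 10.1% and 10.5% of all genes, and the result depended on MS 3 h replicate 3. Without it 3 rose and 12 fell, and the median log2 fold change was -0.18 in place of -0.04. The summed level of the list was 134400.0, 159800.0 and 153500.0 CPM at 24 h and 159600.0, 153500.0 and 119400.0 CPM at 3 h, so that replicate 3 at 3 h was the lowest of the 6. The members that rose in every fit were RCA, the Rubisco activase (0.61 ± 0.08), and the Rubisco small subunits RBCS1B (0.74 ± 0.08) and RBCS2B (0.47 ± 0.07). The small subunit genes share read pairs, so their split is uncertain, and RCA overlaps a neighbour. Of the chlorophyll synthesis list 8 of 16 members were higher and 3 lower. CHLH, a subunit of magnesium chelatase, and HEMA1, the first committed enzyme, rose by 0.61 ± 0.09 and 0.56 ± 0.10. PORB (AT4G27440, chr4:13725546-13727440, plus strand), a light-dependent protochlorophyllide reductase, had 174, 212 and 193 CPM at 24 h, against 831, 786 and 578 CPM at 3 h. Each library at 24 h was below each at 3 h (log2 fold change -1.92 ± 0.12, adjusted p = 2.29e-13). It differed from untreated by 2.503 at 3 h and 0.58 at 24 h. PORA, its relative that light represses, also fell (-1.80 ± 0.36), as did GLK1, an activator of chlorophyll genes (-0.42 ± 0.09). PORB overlaps a neighbour, and CHLH shares read pairs.

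Drought and cold genes fell: 15 of 25 members fell and 3 rose (median log2 fold change -0.75), and without MS 3 h replicate 3 these counts were 13 and 3. Of the calls that fell, 10 held in every fit that left out 1 ein2-5 library, beside 1174 of 2223 among all genes. COR15B, a protein that protects chloroplast membranes in the cold, had 2.37, 1.89 and 2.405 CPM at 24 h, against 28.4, 27.6 and 15.3 CPM at 3 h (log2 fold change -3.42 ± 0.24, adjusted p = 5.21e-12). COR15A, its neighbour on the chromosome and close relative, had 16.0, 12.9 and 13.6 CPM at 24 h and 55.0, 65.3 and 39.6 CPM at 3 h (log2 fold change -1.91 ± 0.23). The 2 times did not overlap in either gene, and at 3 h replicate 3 was the lowest. CBF3, the cold factor that activates them, had 0.281, 0.603 and 0.258 CPM at 24 h and 3.12, 3.54 and 2.303 CPM at 3 h (log2 fold change -2.94 ± 0.45). RD29A, a drought and cold reporter gene, had 21.1, 23.49 and 21.2 CPM at 24 h and 55.7, 62.3 and 52.7 CPM at 3 h (log2 fold change -1.37 ± 0.12, adjusted p = 4.98e-10). Its levels at 24 h were all below those at 3 h. The dehydrins LTI30, COR47 and ERD10 fell as well (-1.01 ± 0.14, -0.68 ± 0.10 and -0.75 ± 0.12). NCED3 (AT3G14440, chr3:4831286-4834015, minus strand), the rate-limiting enzyme of stress-induced abscisic acid synthesis, had 2.81, 3.81 and 2.66 CPM at 24 h and 6.98, 5.48 and 7.53 CPM at 3 h (log2 fold change -1.100 ± 0.22, adjusted p = 3.94e-04). The members that rose were RD20, RD26 and HAB1, the last a phosphatase that represses abscisic acid signalling (1.36 ± 0.26, 0.80 ± 0.15 and 0.85 ± 0.10). COR15B overlaps a neighbour.

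Touch and heat shock genes were lower at 24 h when all libraries were used, with 8 of 20 and 8 of 21 members that fell and 1 and 2 that rose. Much of this rested on MS 3 h replicate 3. Without that library 5 touch members fell and 5 rose, 5 heat shock members fell and 1 rose, and the medians moved to -0.14 and -0.04, against -0.50 and -0.52 with it. The summed level of the heat shock list was 228, 257 and 294 CPM at 24 h and 273, 279 and 538 CPM at 3 h. HSP90.1, the inducible cytosolic HSP90, had 14.6, 18.5 and 23.8 CPM at 24 h and 24.9, 27.6 and 79.0 CPM at 3 h. Its log2 fold change was -1.21 ± 0.28 (adjusted p = 0.00160), and -0.47 without replicate 3 (adjusted p = 0.109). HSP70, a cytosolic chaperone, had 48.0, 56.1 and 55.8 CPM at 24 h and 55.6, 54.0 and 149 CPM at 3 h, and its adjusted p of 0.0211 became 0.884 without that library. WRKY40, an early stress factor, had 7.80, 7.20 and 4.51 CPM at 24 h and 9.85, 12.6 and 26.8 CPM at 3 h (adjusted p = 0.00256, and 0.0696 without replicate 3). In all 3 genes replicate 3 was the highest library at 3 h by at least 2-fold. What set this library apart was not tested.

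Some stress genes fell with and without replicate 3. ROF2, a heat-induced immunophilin, had 8.48, 9.54 and 12.2 CPM at 24 h and 18.22, 20.1 and 52.0 CPM at 3 h. Its log2 fold change was -1.58 ± 0.25 with all libraries and -0.93 without replicate 3 (adjusted p = 2.32e-04). HSFA2, a heat stress factor, and DREB2A, a drought and heat factor, had log2 fold changes of -2.04 ± 0.35 and -1.65 ± 0.22, and -1.65 and -1.79 without it. Of the touch list, ZAT12, a zinc finger factor of oxidative stress, had 2.81, 2.83 and 3.95 CPM at 24 h and 6.81, 10.1 and 7.69 CPM at 3 h (log2 fold change -1.37 ± 0.18, adjusted p = 1.42e-06). OXI1, a kinase of oxidative signalling, and ZAT10 fell as well (-0.98 ± 0.14 and -1.15 ± 0.23). None of these had overlapping libraries. TCH3, a calmodulin-like touch gene, moved the other way, with 157, 187 and 125 CPM at 24 h and 78.0, 84.6 and 99.7 CPM at 3 h (log2 fold change 0.84 ± 0.18, adjusted p = 7.93e-04). DREB2A and TCH3 overlap a neighbour.

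Of the mitochondrial dysfunction genes 5 of 15 fell and 1 rose, and without MS 3 h replicate 3 2 fell and 2 rose. AOX1A, the stress-induced alternative oxidase, had 27.9, 32.3 and 34.4 CPM at 24 h, against 49.2, 52.5 and 75.3 CPM at 3 h. Its libraries did not overlap, and it fell with that library (log2 fold change -0.90 ± 0.14, adjusted p = 1.95e-05) and without it (-0.69, adjusted p = 4.17e-04). CYP81D8, a cytochrome P450 often used as a marker of this response, had 4.54, 7.35 and 8.502 CPM at 24 h and 18.5, 20.3 and 44.1 CPM at 3 h (log2 fold change -2.02 ± 0.32). UGT74E2, a glycosyltransferase of an auxin precursor, had 4.38, 6.45 and 6.999 CPM at 24 h and 18.7, 16.3 and 58.9 CPM at 3 h, and its call was lost without replicate 3 (adjusted p = 0.00322, then 0.0635). NDA1, a light-regulated alternative NADH dehydrogenase, rose, with 129, 184 and 168 CPM at 24 h and 74.2, 74.6 and 43.6 CPM at 3 h (log2 fold change 1.32 ± 0.14, adjusted p = 1.35e-08). Among glutathione transferases 6 of 18 fell and 4 rose. The detoxifying enzymes GSTU25, GSTU24, GSTU7 and GSTU1 fell (-1.69 ± 0.21, -1.15 ± 0.20, -1.08 ± 0.15 and -0.84 ± 0.13). GSTF2, GSTF6 and GSTF7, of the phi class, rose (1.56 ± 0.20, 0.80 ± 0.27 and 0.84 ± 0.22). GSTU7 and GSTF2 overlap a neighbour, and GSTF6 and GSTF7 are adjacent genes of similar sequence.

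Few core hypoxia genes passed in ein2-5: 2 of 22 rose and 2 fell, close to the shares of all genes, and the median log2 fold change was 0.04. ADH1, alcohol dehydrogenase, had 152, 254 and 205 CPM at 24 h and 264, 216 and 209.6 CPM at 3 h. The 2 times overlapped (log2 fold change -0.18 ± 0.19, adjusted p = 0.585). PDC1 (AT4G33070, chr4:15952257-15954803, minus strand), pyruvate decarboxylase, had 126, 161 and 133 CPM at 24 h and 198, 187 and 187 CPM at 3 h and fell (log2 fold change -0.45 ± 0.12, adjusted p = 0.00629), as did the ethylene receptor gene ETR2 (-0.48 ± 0.17, adjusted p = 0.0385). LBD41, a hypoxia-induced repressor of transcription, had 59.0, 75.2 and 70.7 CPM at 24 h and 50.2, 49.3 and 52.3 CPM at 3 h and rose (log2 fold change 0.43 ± 0.12, adjusted p = 0.00973). The other member that rose was AT1G33055, of unknown function (0.86 ± 0.21), which overlaps a neighbour. SUS4, HRE1, PCO1 and PCO2 had log2 fold changes of -0.08 ± 0.09, -0.25 ± 0.12, 0.21 ± 0.10 and 0.21 ± 0.14, none past the threshold. ADH1 and HRE1 overlap a neighbour.

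Of the ethylene perception and signalling list 5 of 12 fell and 0 rose, beside 10.5% and 10.1% of all genes, and 1 of these calls held in every fit that left out 1 ein2-5 library. That member was EIL1, a factor that acts beside EIN3, with 352, 284 and 328 CPM at 24 h and 395, 558 and 500.0 CPM at 3 h (log2 fold change -0.59 ± 0.14, adjusted p = 0.00198). Its libraries at 24 h lay below those at 3 h. The F-box genes EBF1 and EBF2, the kinase CTR1 and the receptor ETR2 passed with all libraries (-0.24 ± 0.07, -0.45 ± 0.15, -0.21 ± 0.08 and -0.48 ± 0.17); EBF1, EBF2 and CTR1 did not without MS 3 h replicate 3, where 2 members fell. In ethylene synthesis 1 of 13 rose and 2 fell, beside 10.1% and 10.5% of all genes. Without MS 3 h replicate 3 these counts were 1 and 1. The ACC synthase gene ACS11 had 9.77, 10.1 and 8.37 CPM at 24 h and 3.33, 2.70 and 6.79 CPM at 3 h and rose (1.14 ± 0.29, adjusted p = 0.00470). ACS7, another ACC synthase, had 6.71, 4.94 and 9.02 CPM at 24 h and 10.5, 9.98 and 27.0 CPM at 3 h, and its fall (adjusted p = 0.0105) was lost without replicate 3 (adjusted p = 0.240). Of genes known to respond to ethylene 5 of 14 rose and 1 fell, and 5 and 0 without MS 3 h replicate 3. The defensin gene PDF1.2A had 5.15, 14.1 and 10.1 CPM at 24 h and 1.07, 3.01 and 1.52 CPM at 3 h (log2 fold change 2.38 ± 0.45, adjusted p = 1.95e-04). PDF1.2B, HEL, a hevein-like defence protein, and the AP2 factors EDF1 and EDF2 also rose (2.14 ± 0.48, 0.70 ± 0.16, 0.37 ± 0.12 and 0.53 ± 0.09). The PDF1.2 genes are close copies of each other, so the split between them is uncertain.

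Of the salicylic acid and immunity list 8 of 21 members were higher and 1 lower (median log2 fold change 0.26), with the same counts without MS 3 h replicate 3. UGT76B1, which glucosylates salicylic acid and a related immune signal, had 48.2, 48.4 and 48.6 CPM at 24 h, against 18.9, 24.3 and 26.7 CPM at 3 h (log2 fold change 1.05 ± 0.11, adjusted p = 7.07e-09). DLO1 and DMR6, which hydroxylate salicylic acid, had 19.7, 16.3 and 12.4 CPM and 71.8, 67.3 and 59.1 CPM at 24 h and 4.31, 7.27 and 3.70 CPM and 24.7, 36.8 and 22.5 CPM at 3 h. Every library at 24 h was above every library at 3 h in these genes (log2 fold change 1.66 ± 0.24 and 1.24 ± 0.17). WRKY70, a factor that favours salicylic acid over jasmonate responses, rose by 1.35 ± 0.23 and SARD1, which activates salicylic acid synthesis, by 1.22 ± 0.24. EDS5, the transporter that exports the salicylic acid precursor from plastids, was the member that fell (-0.64 ± 0.15). The immunity list was above untreated in both MS groups, with 11 members higher at 3 h and 16 at 24 h. Among all genes 17.3% and 8.44% were higher. Of the jasmonate list 4 of 24 members rose and 4 fell, beside 10.1% and 10.5% of all genes. Without MS 3 h replicate 3, 5 rose and 2 fell. The repressors JAZ9, JAZ3 and JAZ7 rose (0.66 ± 0.11, 0.64 ± 0.12 and 2.18 ± 0.47), and the synthesis genes LOX3 and OPR3 fell (-0.77 ± 0.18 and -0.62 ± 0.14). JAZ1 had 21.2, 17.57 and 16.9 CPM at 24 h and 21.6, 26.1 and 55.2 CPM at 3 h. Its fall (log2 fold change -0.88 ± 0.21) was lost without replicate 3 (adjusted p = 0.104).

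Among auxin-responsive genes 4 of 19 rose and 1 fell, and 4 and 2 without MS 3 h replicate 3. GH3.5 and GH3.6, which conjugate auxin to amino acids, rose by 0.68 ± 0.10 and 0.41 ± 0.11, and the repressor IAA2 by 0.60 ± 0.10. The member that fell was AT1G14130, of the iron-dependent oxygenase family (-0.55 ± 0.16). Of the type A response regulators, which damp cytokinin signalling, 2 of 9 rose, ARR7 (0.59 ± 0.15) and ARR9 (0.65 ± 0.12). Against untreated seedlings 8 members were lower in MS at 3 h and 8 in MS at 24 h, beside 14.4% and 6.57% of all genes. In the senescence list 4 of 13 rose and 1 fell. NAP, a NAC factor that drives leaf senescence, had 6.92, 7.96 and 9.79 CPM at 24 h, against 0.821, 1.49 and 1.32 CPM at 3 h (log2 fold change 2.75 ± 0.22, adjusted p = 6.10e-11). Its mean in untreated seedlings was 7.94 CPM. SAG13, a senescence and stress marker, had 34.4, 30.9 and 47.6 CPM at 24 h and 4.88, 12.2 and 8.72 CPM at 3 h and rose (2.12 ± 0.41), whereas SAG21, an oxidative stress gene, fell (-0.68 ± 0.15). ARR9 and SAG21 overlap a neighbour.

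Expansins and xyloglucan enzymes, which loosen the cell wall, had 8 of 23 members that fell and 1 that rose; without MS 3 h replicate 3 the counts were 10 and 2. EXPA5 had 42.5, 38.1 and 36.2 CPM at 24 h and 74.1, 63.6 and 56.9 CPM at 3 h (log2 fold change -0.74 ± 0.10, adjusted p = 1.18e-06). EXPA11, EXPA15 and XTH20 fell as well (-0.99 ± 0.21, -0.70 ± 0.13 and -0.73 ± 0.14), and XTH25 rose (1.67 ± 0.43). Of the aquaporins 7 of 20 were higher and 2 lower. PIP2;1, a major water channel of the plasma membrane, had 1204, 1225 and 1217 CPM at 24 h, against 794, 804 and 667 CPM at 3 h (log2 fold change 0.69 ± 0.07, adjusted p = 2.12e-09). Its libraries did not overlap. PIP2;3 and the vacuolar channel TIP2;1 rose by 1.04 ± 0.10 and 0.67 ± 0.12. In MS at 3 h 15 aquaporins had been lower than untreated and at 24 h 13 were, beside 14.4% and 6.57% of all genes. The wax and lipid transfer list had 5 of 15 members that fell, among them CER1, an enzyme of cuticular wax (-0.62 ± 0.13), and 2 without replicate 3. Of the cell cycle list 2 of 15 members fell, beside 10.5% of all genes, and 1 did without MS 3 h replicate 3. Of these calls 0 held in every fit that left out 1 library. PIP2;3 has close copies and TIP2;1 overlaps a neighbour.

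Of the phosphate starvation list 6 of 16 members rose, among them the acid phosphatase gene PAP17 (0.71 ± 0.19) and the sulfolipid synthase gene SQD2 (0.53 ± 0.13), but 1 of these calls held in every fit that left out 1 ein2-5 library. The sulphur list had 5 of 17 members higher and 1 lower, and 3 and 0 without MS 3 h replicate 3. Of the rises 2 held in every fit that left out 1 ein2-5 library; SHM7, a serine hydroxymethyltransferase, and BGLU28, a beta-glucosidase, rose by 0.65 ± 0.10 and 1.24 ± 0.30. Of the iron list 3 of 25 fell and 1 rose, beside 10.5% and 10.1% of all genes. Without MS 3 h replicate 3 these counts were 4 and 0. FIT, the main regulator of iron uptake in roots, had 5.79, 7.28 and 6.66 CPM at 24 h and 12.2, 11.9 and 11.02 CPM at 3 h (log2 fold change -0.83 ± 0.14, adjusted p = 3.89e-05). BGLU42, a beta-glucosidase of the iron response, fell as well (-0.63 ± 0.10). The glucosinolate and camalexin list had 8 of 18 members lower and 2 higher, but 5 were lower and 5 higher without MS 3 h replicate 3. Of the falls 4 held in every fit that left out 1 ein2-5 library. MYB34, which activates indole glucosinolate genes, had 27.6, 25.4 and 26.2 CPM at 24 h and 41.4, 44.5 and 44.7 CPM at 3 h (log2 fold change -0.72 ± 0.08, adjusted p = 3.11e-08). MYB28 and MYB29, which activate aliphatic ones, fell too (-0.48 ± 0.10 and -0.67 ± 0.14). CYP71A13, an enzyme of camalexin synthesis, had 7.16, 5.69 and 7.17 CPM at 24 h and 0.698, 1.41 and 0.617 CPM at 3 h and rose (log2 fold change 2.86 ± 0.47, adjusted p = 3.05e-05). It overlaps a neighbour, as does PAP17. Of the cytosolic ribosomal protein genes that could be found by name 1 of 6 rose, beside 10.1% of all genes.

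Markers of the tissues in a seedling were set beside these changes. Of the root hair list 1 of 9 fell, beside 10.5% of all genes, and 0 did without MS 3 h replicate 3. The member that fell was PRP3 (-0.42 ± 0.14, adjusted p = 0.0363, and 0.278 without that library). Of the endodermis, guard cell and vascular lists none of 6, 5 and 6 passed. 1 vascular member rose without MS 3 h replicate 3. At an unadjusted p under 0.05 from edgeR 4 root hair members were lower, and DESeq2 called 2. For the endodermis, guard cell and vascular lists 1, 2 and 1 members passed at that unadjusted p, and DESeq2 called 0, 0 and 1. Among all 21256 genes 3147 were higher and 3480 lower at that unadjusted p, and DESeq2 called 2414 higher and 2167 lower. The summed level of the root hair list was 75.5, 55.2 and 69.6 CPM at 24 h and 80.0, 81.5 and 102 CPM at 3 h, so that all 24 h libraries were lower. All 6 seed storage genes were too low to be tested. Whether the share of root or shoot tissue moved with the groups was not tested beyond these markers.

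Among genes with a mean of 5 CPM or more in the higher of the 2 times, the largest changes were spread over several functions. Besides LHY, BT2, NAP and CYP71A13, the 10 largest rises that did not rest on replicate 3 included CYP71A20, a cytochrome P450 gene, with 7.88, 7.69 and 6.31 CPM at 24 h and 0.862, 0.343 and 0.0823 CPM at 3 h (log2 fold change 4.08 ± 0.37, adjusted p = 8.63e-10). ANK, an ankyrin repeat protein gene, had 46.4, 48.8 and 38.3 CPM at 24 h and 3.41, 10.1 and 1.36 CPM at 3 h (3.15 ± 0.44), and ARD3, an enzyme of methionine salvage, had 37.9, 49.5 and 35.4 CPM at 24 h and 6.73, 6.89 and 3.41 CPM at 3 h (2.85 ± 0.30). All 3 had no library at 3 h as high as the lowest at 24 h. The choice of these 10 rises and of the 10 falls required such separation, so it adds no support. The other rises were AT2G29300, annotated as a Rossmann-fold protein (2.86 ± 0.18), and the adjacent receptor-like kinase related genes AT5G41290 and AT5G41280 (3.01 ± 0.41 and 2.77 ± 0.36). Of the 10 largest falls, AT1G56300, a DnaJ-domain protein gene, had 1.61, 0.679 and 0.773 CPM at 24 h and 24.1, 26.3 and 34.2 CPM at 3 h (log2 fold change -4.78 ± 0.24, adjusted p = 3.19e-15). GPT2, the sugar phosphate carrier of plastids, had 2.53, 0.943 and 0.644 CPM at 24 h and 10.1, 12.3 and 81.9 CPM at 3 h, with replicate 3 far above the other 3 h libraries (log2 fold change -4.65 ± 0.86, and -3.02 without it, adjusted p = 0.00519). AT5G62360, of the pectin methylesterase inhibitor family, AT4G34950, a major facilitator family gene, RbcX1, a chaperone of Rubisco assembly, ABCG40, an abscisic acid importer, and AT4G08555, an uncharacterized gene, had log2 fold changes of -3.68 ± 0.27, -2.999 ± 0.27, -2.80 ± 0.19, -2.68 ± 0.37 and -2.57 ± 0.34. ABCG40 moved to -1.89 without replicate 3. FKF1, PRR5 and COR15B complete the falls. ANK, AT1G56300 and RbcX1 overlap a neighbour.

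Wild type gave the most similar comparison, and it shares no library with that of ein2-5. In wild type 3911 genes (18.4%) differed between 24 h and 3 h, of which 1938 (9.12%) rose and 1973 (9.28%) fell. With each genotype's 6 libraries fitted alone the order of these totals turned round, with 2177 genes in ein2-5 and 4900 in wild type, and the cause was not tested. Both genotypes called 2363 genes, 2325 of them in the same direction, which is 53.3% of the ein2-5 calls and 59.4% of the wild type calls. Over all 21256 genes the Pearson correlation of the log2 fold changes was 0.499, as a description across genes that are not independent. The clock lists moved alike: in wild type 10 morning members rose and 10 day and evening members fell, and the medians were 1.095 and -0.98. PRR9 was the member of these morning and day and evening lists that differed between genotypes: it fell in ein2-5 and rose in wild type (0.47 ± 0.11), a difference of -0.96 ± 0.16 (adjusted p = 5.28e-04). Among the 13 clock outputs 2 had a lower change in ein2-5 and 0 a higher one, with and without MS 3 h replicate 3. Of all genes 0.602% had a lower and 1.16% a higher change, and 0.659% and 1.21% without that library. LHY differed between genotypes by -0.33 ± 0.17 (adjusted p = 0.416), and PHS2, GWD1 and CHS by 0.15 ± 0.15, 0.20 ± 0.13 and -0.07 ± 0.12, none past the threshold.

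The test of the difference between genotypes, the log2 fold change in ein2-5 minus that in wild type, passed for 375 genes (1.76%), 247 with a higher and 128 with a lower value in ein2-5. Without MS 3 h replicate 3 it passed for 399 (1.86%), 287 of them among the 375, and 1.21% of genes had a higher and 0.659% a lower value in ein2-5. Of the 375 genes 263 also passed the test of 24 h against 3 h in ein2-5, 108 passed it in wild type and not in ein2-5, and 38 passed it in both with opposite directions. Of the 247, 152 rose in ein2-5, and of the 128, 60 fell in it.

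**Figure D3:**
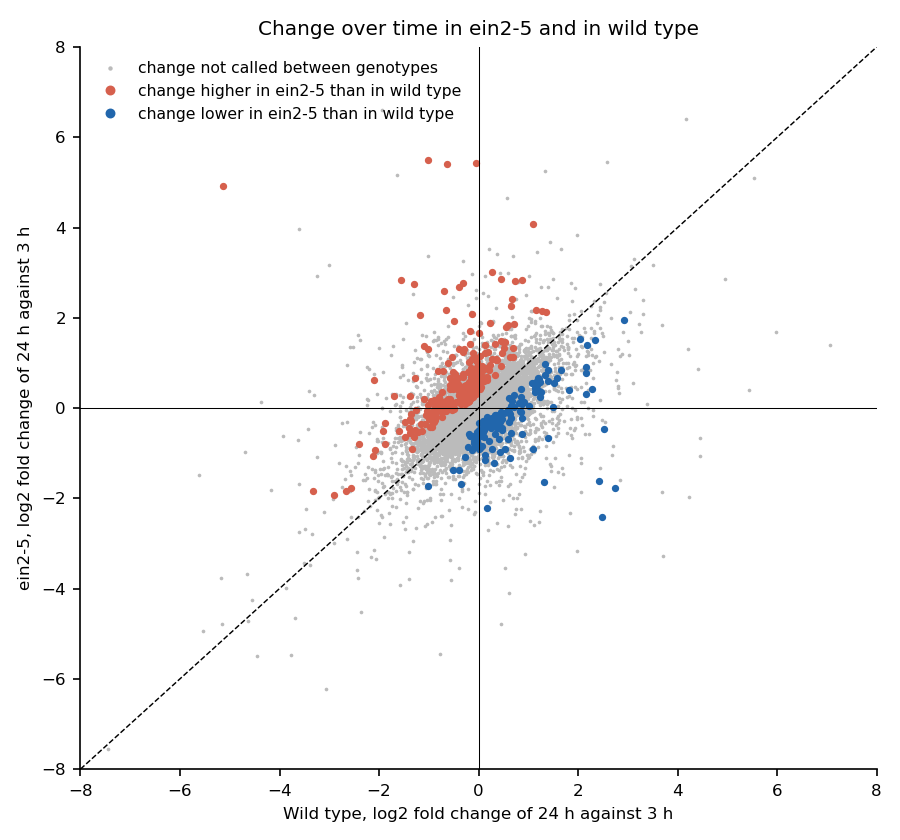
Log2 fold change at 24 h against 3 h in wild type (x axis) and in ein2-5 (y axis), 1 point per gene tested; coloured points are the 247 genes with a higher and the 128 genes with a lower change in ein2-5 (adjusted p under 0.05), and the dashed line marks equal changes. The coloured genes lie to either side of the line. AT1G52120 has the largest difference, 4.04, among genes with a mean of 5 CPM or more in at least 1 of the 4 groups.

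The sugar starvation list held the most such members: 8 of 18 had a higher change in ein2-5 and 1 a lower one, against 1.16% and 0.602% of all genes. TPS11, given above for ein2-5, had 58.6, 61.7 and 68.5 CPM in wild type at 24 h and 38.9, 43.0 and 38.0 CPM at 3 h. Its log2 fold change was 2.26 ± 0.12 in ein2-5 and 0.66 ± 0.12 in wild type, and the difference of 1.61 ± 0.17 passed (adjusted p = 5.12e-07). DIN10 had 234, 243 and 286 CPM in wild type at 24 h and 223, 239.5 and 231 CPM at 3 h. It did not pass in wild type (0.14 ± 0.12, adjusted p = 0.494), and the difference was 1.26 ± 0.17 (adjusted p = 2.84e-05). TPS8, TPS9, TPS10, BZIP1, BZIP63 and STP1 differed by 1.24 ± 0.16, 0.96 ± 0.13, 0.47 ± 0.12, 1.09 ± 0.21, 0.87 ± 0.14 and 0.78 ± 0.14. Without MS 3 h replicate 3 7 of the list had a higher change, and TPS10 no longer passed (adjusted p = 0.0859). BT2 had 25.7, 24.2 and 36.0 CPM in wild type at 24 h and 17.37, 15.65 and 18.5 CPM at 3 h. It rose in both genotypes, by 2.81 ± 0.16 in ein2-5 and 0.74 ± 0.16 in wild type, and the difference was 2.07 ± 0.22 (adjusted p = 5.12e-07). BT1 differed by 0.87 ± 0.18 and DIN2, a beta-glucosidase that rose in wild type, by -1.86 ± 0.49.

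**Figure D4:**
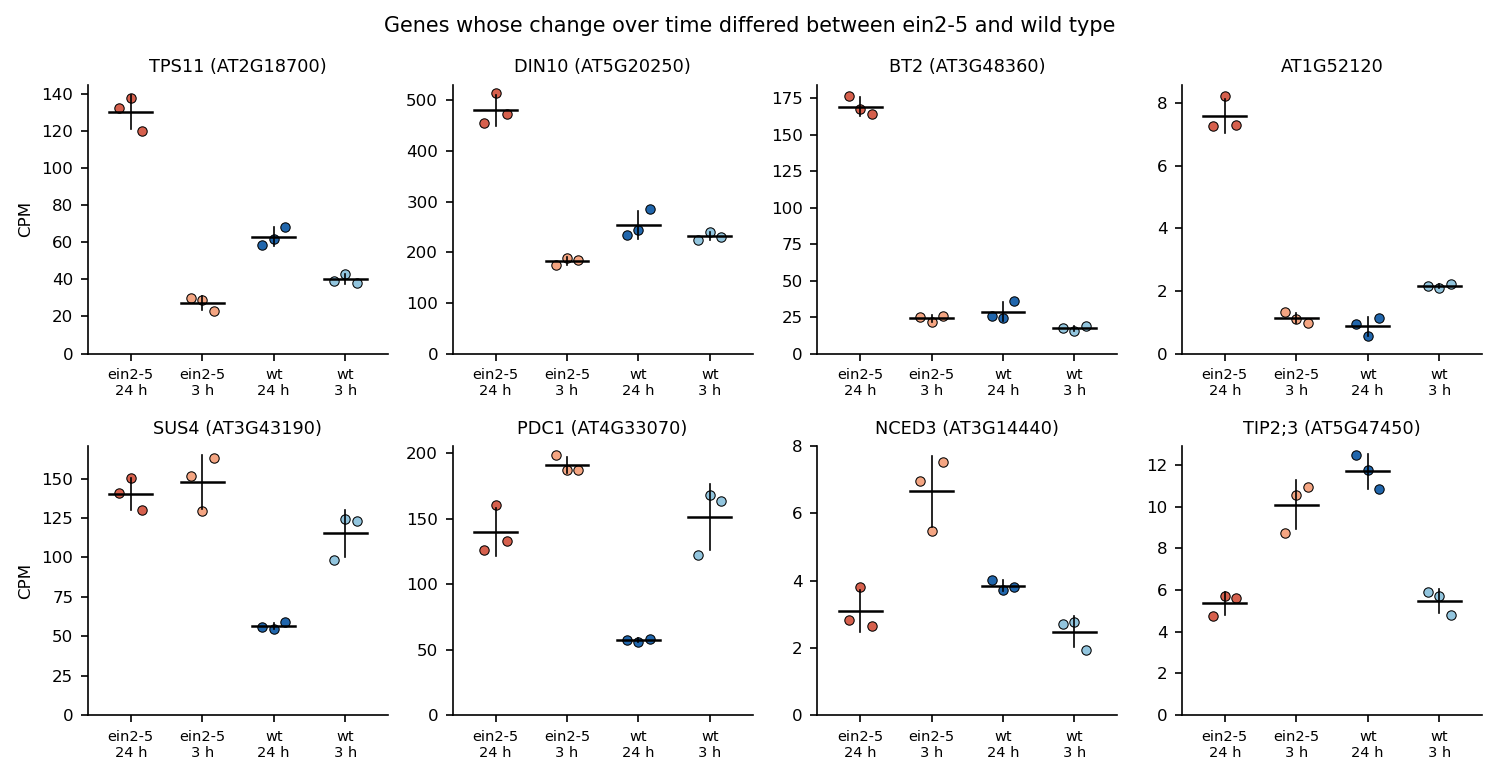
Expression (CPM, linear axis) of 8 genes whose change between 24 h and 3 h differed between genotypes, in each library of ein2-5 at 24 h, ein2-5 at 3 h, wild type at 24 h and wild type at 3 h in MS; dots are libraries, the line is the mean and the bar 1 SD (n = 3). TPS11, DIN10, BT2 and AT1G52120 had a higher change in ein2-5, SUS4 and PDC1 had a lower change in wild type, and NCED3 and TIP2;3 fell in ein2-5 and had higher means at 24 h than at 3 h in wild type.

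Core hypoxia genes formed the next set: 7 of 22 had a higher change in ein2-5 and 0 a lower one, beside 1.16% and 0.602% of all genes. Without MS 3 h replicate 3, 6 had a higher change, beside 1.21%. In wild type 16 members fell and 0 rose (median -0.64), beside 9.28% and 9.12% of all genes. PDC1 had 57.3, 55.6 and 58.4 CPM in wild type at 24 h and 123, 168 and 164 CPM at 3 h, a log2 fold change of -1.41 ± 0.12, and differed by 0.96 ± 0.17 between genotypes (adjusted p = 0.00150). SUS4 (AT3G43190, chr3:15179010-15184105, minus strand), a sucrose synthase, had 141, 150.5 and 129.8 CPM in ein2-5 at 24 h and 151, 129 and 163 CPM at 3 h, and 55.8, 54.7 and 58.9 CPM in wild type at 24 h and 98.3, 124 and 123 CPM at 3 h. The ein2-5 times overlapped, and wild type was lower at 24 h. The difference was 0.95 ± 0.13 (adjusted p = 5.99e-05). HRE1, a group VII ethylene response factor, the cysteine oxidases PCO1 and PCO2, which sense oxygen, LBD41, and NIP2;1, a root channel protein, differed by 0.75 ± 0.17, 0.56 ± 0.14, 0.83 ± 0.20, 0.85 ± 0.17 and 1.56 ± 0.32. PCO1 no longer passed without replicate 3 (adjusted p = 0.0579). ADH1 fell in wild type (-1.16 ± 0.19) but its difference did not pass (0.99 ± 0.27, adjusted p = 0.0542).

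Members of other lists that differed were fewer. A higher change in ein2-5 was found for PORB (0.98 ± 0.16), which fell less there, for the defence genes CYP81F2 and MYB51 of indole glucosinolates (1.65 ± 0.24 and 1.01 ± 0.23), for AOC2 of jasmonate synthesis (1.15 ± 0.20), the repressors JAZ7 and JAZ9 (2.84 ± 0.75 and 0.70 ± 0.16), ORA59, which joins ethylene and jasmonate signals (1.11 ± 0.28), DLO1 (1.65 ± 0.40) and ARR7 (1.08 ± 0.20). A lower change was found for NCED3, which had 4.03, 3.71 and 3.82 CPM in wild type at 24 h and 2.72, 2.77 and 1.94 CPM at 3 h. It fell in ein2-5 and did not pass in wild type (0.64 ± 0.23, adjusted p = 0.0560), and the difference was -1.74 ± 0.32 (adjusted p = 0.00236). RD29A and the phosphatase genes ABI2 and HAB1 of the same list differed by -0.85 ± 0.17, -1.100 ± 0.26 and -0.54 ± 0.14. TIP2;3 (AT5G47450, chr5:19248249-19249622, minus strand), a vacuolar aquaporin of roots, had 4.74, 5.73 and 5.62 CPM in ein2-5 at 24 h and 8.74, 10.59 and 10.9 CPM at 3 h, and 12.5, 11.8 and 10.8 CPM in wild type at 24 h and 5.92, 5.71 and 4.81 CPM at 3 h. It fell in ein2-5 and rose in wild type, with a difference of -2.003 ± 0.27 (adjusted p = 4.14e-05). GSTU1, GSTU7, GSTU24 and GSTU25 differed by -0.77 ± 0.18, -0.80 ± 0.21, -1.29 ± 0.28 and -1.34 ± 0.30, and GSTU7 no longer passed without MS 3 h replicate 3 (adjusted p = 0.0613). The heat shock list had 5 of 21 members with a lower change in ein2-5, beside 0.602% of all genes. Without MS 3 h replicate 3 it had 2, beside 0.659%. In wild type 7 of its members rose and 2 fell, beside 9.12% and 9.28% of all genes.

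Among genes with 5 CPM or more in at least 1 of the 4 groups, the largest higher changes in ein2-5 lay outside the lists. The largest lower changes, by contrast, included list members, NCED3 among them. AT1G52120 (chr1:19396081-19398244, minus strand), a gene of the mannose-binding lectin family, had 7.28, 8.22 and 7.30 CPM in ein2-5 at 24 h and 1.31, 1.104 and 0.987 CPM at 3 h, and 0.931, 0.549 and 1.13 CPM in wild type at 24 h and 2.15, 2.096 and 2.24 CPM at 3 h. It rose in ein2-5 and fell in wild type, and differed by 4.04 ± 0.42 (adjusted p = 4.94e-07). Genes of this set were chosen by the size of this difference, so their size adds no support. A gene could reach 5 CPM through 1 group alone, as AT1G52120 did through ein2-5 at 24 h. AT2G15880, of a leucine-rich repeat family, had 16.6, 10.1 and 12.7 CPM in ein2-5 at 24 h and 8.29, 8.84 and 8.595 CPM at 3 h, and 3.90, 5.03 and 4.73 CPM in wild type at 24 h and 18.8, 17.8 and 22 CPM at 3 h. Its log2 fold change was 0.61 ± 0.18 in ein2-5 and -2.100 ± 0.20 in wild type. AT5G22555, of unknown function, AT5G41280, AT5G41290 and CYP71A20 rose in ein2-5, and differed from wild type by 3.08 ± 0.53, 3.08 ± 0.54, 2.73 ± 0.59 and 2.98 ± 0.50.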

How the data were processed

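RNA of whole seedlings was measured by sequencing in 30 libraries, of which the 6 of ein2-5 in MS at 24 h and 3 h are described here, with the 6 of wild type and the 3 of untreated ein2-5 beside them. The submitters' processing notes name HISAT2, SAMtools, featureCounts, DESeq2 and TAIR10. The authors deposited expected counts, and per the file headers featureCounts 2.0.3 ignored strand, took pairs as the unit and gave each of several matches a fraction. Of these deposited values 6.31% were not whole, and all were rounded. The matrix held 27655 genes and 21219655 to 32603880 counts per library.

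The edgeR function filterByExpr (minimum count 10) kept 21256 genes. All 30 libraries entered 1 fit in edgeR 4.0.16 (R 4.3.3), with a mean for each of 10 groups and TMM factors of 0.958 to 1.058, and contrasts were tested by the quasi-likelihood F test with Benjamini-Hochberg adjustment and a threshold of 0.05. Shared spread across groups was used because each has 3 libraries. The biological coefficient of variation was 11.2%. Levels are CPM, counts scaled to library size with the same factors. Standard errors were the log2 fold change divided by the square root of F. The steps were tested on simulated data.

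Of the identifiers 27445 matched RefSeq (TAIR10.1), which gave symbols, products, overlaps and the promoters of 21130 tested genes. The 38 gene lists held 630 genes, of which 614 were tested. Members and lists were chosen from textbook knowledge with earlier results of these data known. Genes named are the 10 largest changes per direction that passed with and without MS 3 h replicate 3, did not overlap and had a mean of 5 CPM or more in the higher of the 2 times, so that a gene could pass through that time alone, the 5 smallest adjusted p-values of each list, fixed clock, hypoxia and EIN2 genes, and the 6 largest differences between genotypes per direction with 5 CPM or more in 1 of the 4 groups. Other list members were named after their values were seen. Equal replicate numbers did not pair samples (correlation of deviations -0.168, 0.116 and -0.114 in ein2-5), so no block was used. Alternatives were other scaling, filters, thresholds, DESeq2 1.42.0, a replicate block, a fit of only the libraries compared, leaving out the 210 organelle genes and leaving out each library.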

Additional observations from a re-analysis of the deposited data

Results flagged for a closer look

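The change between 24 h and 3 h in MS differed between ein2-5 and wild type in 375 genes by the test of the difference itself. Those with the largest differences in each direction, among genes with 5 CPM or more in at least 1 of the 4 groups, are given. Values are the log2 fold change in ein2-5 minus that in wild type. A higher value in ein2-5 was found for AT1G52120 (4.04), AT5G22555 (3.08), AT5G41280 (3.08), CYP71A20 (2.98), AT5G41290 (2.73) and AT2G15880 (2.71). AT1G52120 and AT2G15880 rose in ein2-5 and fell in wild type, and the other genes rose in ein2-5, with log2 fold changes in wild type of -0.40 (AT5G22555), -0.32 (AT5G41280), 1.098 (CYP71A20) and 0.28 (AT5G41290). AT5G41280 and AT5G41290 are adjacent and of the same family.

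A lower value in ein2-5 was found for AT1G07400, an HSP20-like chaperone gene (-2.38), TIP2;3 (-2.00), PXMT1, annotated as a methyltransferase (-1.84), NCED3 (-1.74), HSP90.1 (-1.51) and AT3G09450, of the fusaric acid resistance family (-1.44). PXMT1 had 4.02, 4.11 and 6.61 CPM in ein2-5 at 24 h and 3.16, 5.07 and 3.58 CPM at 3 h, and 5.54, 9.70 and 8.41 CPM in wild type at 24 h and 2.80, 1.43 and 1.06 CPM at 3 h, and it rose in wild type (2.15 ± 0.33) and did not pass in ein2-5 (0.31 ± 0.31). AT3G09450 also rose in wild type (0.87 ± 0.21) and did not pass in ein2-5 (-0.57 ± 0.25). AT1G07400 had 2.49, 2.34 and 1.89 CPM in ein2-5 at 24 h and 5.91, 5.64 and 19.9 CPM at 3 h, with MS 3 h replicate 3 the highest. Without that library the differences for AT1G07400 and HSP90.1 no longer passed (adjusted p = 0.107 and 0.159 from edgeR), and the other 10 did.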

How the results depend on the processing

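The count of 4361 genes for ein2-5 stayed within 1.5 times under every other scaling and filter, DESeq2 and the fit without organelle genes. Fitting only the libraries compared gave 2177 genes (1158 higher, 1019 lower), and an adjusted p under 0.01 gave 2843 (1365 lower). Leaving out 1 library at a time gave 3508 to 4115 genes, 1775 to 2055 of them higher and 1733 to 2081 lower. Without MS 3 h replicate 3 and MS 24 h replicate 1 together, a fit added after seeing the data, 1452 were lower. For the difference between genotypes DESeq2 called 576 genes (386 higher), only the libraries compared gave 221 (55 lower) and a threshold of 0.01 gave 134 (101 higher, 33 lower). Leaving out 1 library gave 212 to 399 genes, 143 to 258 higher and 60 to 141 lower, with 212 both without wild type MS 24 h replicate 1 and without wild type MS 3 h replicate 3. Wild type had 2541 genes at 0.01 (1268 higher, 1273 lower) and 3063 to 3219 with 1 library left out (1506 to 1590 higher, 1485 to 1636 lower). Fitting only the libraries compared moved wild type the other way, to 4900 genes. A stricter threshold lowers a count by its construction, and for the other settings the cause was not tested.

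With the replicate number as a block, which does not pair the samples, 4269 genes passed in ein2-5, 332 by genotype and 3797 in wild type, and of the 212 named genes 209 kept direction and call.

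Over all alternatives, 3185 of 3389 values of these 212 genes kept direction and call, 165 no longer passed, 18 newly passed and 21 changed sign. None of the last was past the threshold. Over the fits that left out 1 library, or both MS 3 h replicate 3 and MS 24 h replicate 1, their log2 fold changes lay in the ranges -0.27 to 0.0895 for MYB60, -0.0215 to 0.22 for XCP2, -2.06 to 0.0851 for AT2G16360, -0.0267 to 0.25 for AT2G36170, -0.13 to 0.0766 for FAMA, -0.16 to 0.017 for SUS4, -0.0737 to 0.23 for XCP1, -0.0888 to 0.0255 for EIN2, -0.69 to 0.0172 for CASP5, -0.0025 to 0.12 for IRX3, -0.31 to 0.0865 for KAT1 and -0.14 to 0.0354 for ARR6. With both left out, MYB60 had 0.0722, SUS4 0.017 and ARR6 0.0056. Of 264 values of the genotype difference for 12 genes, 223 kept their call and 41 no longer passed. Depth limits genes near 0: FKF1, with 0.0377 to 0.322 CPM at 24 h, had a standard error of 0.52 on the log2 scale.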
